A study of Mus musculus with 4 samples.

Results

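The transcripts of 9 secreted factors that act on blood vessels, Vegfa, Vegfb, Vegfc, Pgf, Prok2, Hgf, Angpt1, Angpt2 and Osm, were followed in lung myeloid cells of mice with a pre-metastatic niche (PMN). The genes were taken by symbol from the deposited count table, 9 of its 54532 genes. CD11b+Ly6g+ myeloid-derived suppressor cells (MDSCs) were sorted from digested lungs of C57BL/6 mice aged 6 to 8 weeks, and the cells of 10 to 12 mice were pooled into 1 RNA library for each of 4 groups. Every mouse, controls included, was given MCM, the medium conditioned by cultured B16F10 mouse melanoma cells, into the peritoneum for 10 days at 300 μL, and B16F10 cells into the tail vein on day 7. Control (Ctrl) mice received no peptide. Mice of the other groups were given TP5, sFD17 or FR17 subcutaneously, each at 40 μM/kg/day starting on day 3, and all lungs were taken on day 10. TP5 is free thymopentin, a short immunomodulatory peptide. FR17 joins TP5 through a linker that matrix metalloproteinase 2 cuts to a backbone that assembles in the tissue, and sFD17 has the same build with the TP5 residues scrambled, so it assembles without the TP5 activity. Mice without MCM were not sequenced, so every comparison is within the PMN model.

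New vessels are laid out by the VEGF family, in which VEGF-A drives endothelial sprouting and permeability through VEGFR2, VEGF-B and placental growth factor bind VEGFR1, and VEGF-C acts on lymphatic vessels through VEGFR3. Angiopoietin 1 keeps vessels quiet and tight through the receptor Tie2, and angiopoietin 2 loosens them in many settings. Myeloid cells add prokineticin 2 (Bv8), a factor induced by G-CSF that promotes angiogenesis and mobilises myeloid cells, as well as hepatocyte growth factor and oncostatin M, a cytokine of the interleukin 6 family that neutrophils release.

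The libraries held between 15543071 counts (sFD17) and 19638228 counts (FR17). With 1 library per group there was no replicate check, and no p-value rests on replicates. A gene was called at a difference of 2-fold or more between a pair of libraries, over the 16369 genes with at least 10 counts in 1 library or more, and all 9 factors passed that minimum. Levels within a gene are given as CPM, counts relative to a library size scaled by the trimmed mean of M-values (TMM), and the 95% interval of each ratio is the exact binomial interval of the pair of counts, which covers counting error only and not the spread between mice. The sorting markers were present in every library: relative to Ctrl, Itgam (CD11b) stood at ratios of 0.973, 1.14 and 0.792 in the TP5, sFD17 and FR17 libraries, and Ly6g at 1.34, 1.52 and 1.24. These are bulk libraries, in which fewer cells of a type and less RNA per cell cannot be told apart.

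Osm and Vegfa were by far the most abundant of the factors. Compared as TPM, counts relative to gene length and library size, the control cells held Osm at 930 TPM and Vegfa at 139 TPM, which placed them at the 99.1 and 94.1 percentiles of the genes tested. The other 7 factors were at least an order of magnitude lower, from Vegfb at 12.0 TPM through Hgf at 8.42, Prok2 at 4.90, Vegfc at 2.79, Angpt2 at 1.68 and Angpt1 at 0.459 to Pgf at 0.329 TPM. In this order the counting intervals of Prok2 and Vegfc, of Vegfc and Angpt2, and of Angpt1 and Pgf overlapped. Osm and Vegfa kept the first and second place in all 4 libraries, and the places below them did not. Prok2 took the third place in sFD17, at 21.2 TPM against 6.01 TPM for Hgf and 5.65 TPM for Vegfb. In FR17 it stood at 3.03 TPM, below Vegfc at 4.20 TPM, although those intervals overlapped.

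**Figure D1:**
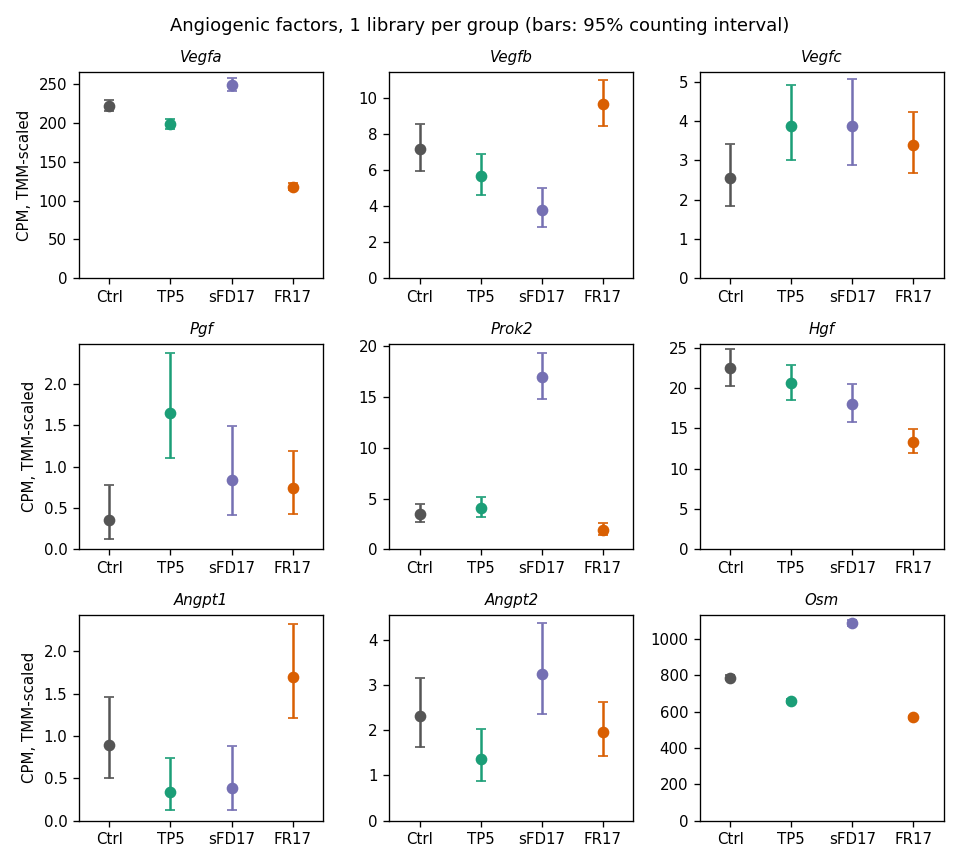
Level of each factor in the 4 libraries, in TMM-scaled CPM on linear axes that start at 0, with 1 point per library and bars for the exact 95% Poisson interval of the count. Prok2 stands alone at 17.0 CPM in sFD17 against 1.92 to 4.10 CPM in the other libraries, and Vegfa is lowest in FR17 at 118 CPM.

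Vegfa (ENSMUSG00000023951, GRCm38.p6 chromosome 17, 46016993 to 46032369, minus strand) was counted over its 4285 exonic bases, which code for VEGF-A. It had 3752 counts in Ctrl, 3486 in TP5, 3293 in sFD17 and 2713 in FR17, or 222, 199, 249.5 and 118 CPM. FR17 was the low library and the other 3 lay close together. Vegfa in FR17 was 0.532 times its control level (95% interval 0.506 to 0.559), short of a 2-fold difference at a log2 fold change of -0.91. Against sFD17, FR17 passed it: Vegfa was 2.11-fold lower (95% interval 2.01 to 2.22; log2 fold change -1.08). That call was lost when the libraries were scaled by their size alone, at -0.62, and with no filter on low counts, at -0.97. TP5 held 0.895 times the control level (0.854 to 0.937) and sFD17 1.12 times (1.07 to 1.18), and the sign of the sFD17 difference turned with library size alone, to a log2 fold change of -0.05.

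The other VEGF ligands were minor transcripts with patterns of their own. Vegfb (ENSMUSG00000024962, chromosome 19, 6982473 to 6987651, minus strand), which codes for the VEGFR1 ligand VEGF-B, had 121 counts in Ctrl, 99 in TP5, 50 in sFD17 and 221 in FR17, or 7.16, 5.64, 3.79 and 9.63 CPM. It ran opposite to Vegfa between the assembling peptides, with FR17 highest and sFD17 lowest. The FR17 level was 2.54 times that of sFD17 (95% interval 1.86 to 3.53), past 2-fold, and 1.34 times that of Ctrl (1.07 to 1.69). The sFD17 level was 0.529 times that of Ctrl (0.373 to 0.741), which passed 2-fold with library size alone, at a log2 fold change of -1.11. Vegfc (ENSMUSG00000031520, chromosome 8, 54077606 to 54187096, plus strand), the lymphatic ligand, had 43, 68, 51 and 78 counts, or 2.55 CPM in Ctrl, 3.88 in TP5, 3.86 in sFD17 and 3.40 in FR17. Its 3 peptide libraries lay above Ctrl by ratios of 1.33 to 1.52, and only the TP5 interval (1.02 to 2.29) left out 1. Pgf (ENSMUSG00000004791, chromosome 12, 85166635 to 85177790, minus strand), which codes for placental growth factor, had 6 counts in Ctrl, 29 in TP5, 11 in sFD17 and 17 in FR17. TP5 was the high library at 1.65 CPM against 0.355 CPM in Ctrl, a rise of 4.65-fold with a wide interval (1.90 to 13.7). Pgf in sFD17 was also past 2-fold above Ctrl, at a log2 fold change of 1.01, on counts so few that its ratio interval ran from 0.795 to 7.73, and the call was lost with library size alone, at 0.82, and with no filter on low counts, at 0.98.

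Prok2 (ENSMUSG00000030069, chromosome 6, 99711299 to 99726392, minus strand), which codes for prokineticin 2, differed most. It had 59 counts in Ctrl, 72 in TP5, 224 in sFD17 and 44 in FR17, or 3.49, 4.10, 17.0 and 1.92 CPM. Only sFD17 stood apart upward, and FR17 was the lowest library. Prok2 in sFD17 rose 4.86-fold over Ctrl (95% interval 3.63 to 6.59) and was 4.14-fold above TP5 (3.16 to 5.47). Between the assembling peptides it was 8.85-fold lower in FR17 than in sFD17 (6.39 to 12.5), a log2 fold change of -3.07. FR17 was 2.14-fold below TP5 (1.45 to 3.19), at a log2 fold change of -1.05 that fell short of 2-fold with library size alone (-0.87) and with no filter on low counts (-0.98). It held 0.549 times the control level (0.363 to 0.825), which was not past 2-fold.

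Of the 4 transcripts past 2-fold between FR17 and sFD17, the promoters of Prok2, Vegfa and Vegfb are shown, as Angpt1 had no matched window. They are the 250 bases before the start site in RefSeq on GRCm38.p6, 5′ to 3′ on the strand of the gene: Prok2 at chr6:99726393-99726642, the first of 2 listed Vegfa start sites at chr17:46032378-46032627, and Vegfb at chr19:6987652-6987901, all on the minus strand. Capitals mark each match to 1 of 6 motifs searched on both strands: the hypoxia response core (ACGTG or GCGTG), a STAT site (TTCNNNGAA), the interferon-stimulated response element (GAAA, any 2 bases, GAAA), an AP-1 site (TGANTCA), a C/EBP site (TTGCNNAA) and the GC box (GGGCGG).
Prok2: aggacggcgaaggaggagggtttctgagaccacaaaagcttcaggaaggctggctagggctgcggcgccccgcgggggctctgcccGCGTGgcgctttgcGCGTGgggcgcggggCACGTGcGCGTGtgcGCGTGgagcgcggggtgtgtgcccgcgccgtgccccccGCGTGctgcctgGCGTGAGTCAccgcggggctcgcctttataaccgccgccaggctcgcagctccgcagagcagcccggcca
Vegfa: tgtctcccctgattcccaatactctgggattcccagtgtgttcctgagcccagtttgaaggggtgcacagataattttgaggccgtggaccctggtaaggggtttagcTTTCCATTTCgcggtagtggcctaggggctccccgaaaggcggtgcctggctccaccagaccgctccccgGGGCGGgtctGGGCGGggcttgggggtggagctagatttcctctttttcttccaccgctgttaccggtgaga
Vegfb: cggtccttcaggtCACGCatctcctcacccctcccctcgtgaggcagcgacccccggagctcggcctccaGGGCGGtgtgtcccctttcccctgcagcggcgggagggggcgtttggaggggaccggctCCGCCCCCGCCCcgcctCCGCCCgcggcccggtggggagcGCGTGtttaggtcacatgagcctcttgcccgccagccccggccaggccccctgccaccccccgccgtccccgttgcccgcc
The Prok2 window held 8 matches to the hypoxia response core, between 164 and 66 bases before the start, of which a pair are the overlapping strands of a single palindrome. At least 8 such matches were found in 27 of 32851 windows of this length, or 0.0822%, and at least 1 in 38.6%. The last of them shared bases with an AP-1 match, a motif found in 6.75% of windows. The window was rich in G and C (73.6%), as was that of Vegfb (76.4%), against 59.2% for Vegfa. The Vegfa window held 2 GC boxes, at 72 and 62 bases before the start, and 1 match to the interferon-stimulated response element, a motif found in 2.98% of windows. The window of the second Vegfa start site held 2 matches to the hypoxia response core and 1 GC box. The Vegfb window held 4 GC boxes, as 4.09% of windows do at least, and 2 hypoxia response cores. Of the other factors, Vegfc had 2 GC boxes and a C/EBP match, the first Pgf start site 2 GC boxes and 1 hypoxia core, and the first Hgf start site 1 hypoxia core. RefSeq windows were matched for 6 of the 9 factors, without Angpt1, Angpt2 and Osm. A match is a run of letters and was not tested as a binding site.

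Hgf (ENSMUSG00000028864, chromosome 5, 16553495 to 16620152, plus strand) codes for hepatocyte growth factor, which acts on epithelial and endothelial cells through Met. It had 380 counts in Ctrl, 361 in TP5, 238 in sFD17 and 307 in FR17, or 22.5, 20.6, 18.0 and 13.4 CPM. FR17 was again the lowest library, though its difference from sFD17 turned in sign with library size alone, to a log2 fold change of 0.03. Its ratio to Ctrl was 0.594 (95% interval 0.510 to 0.693), short of 2-fold, and no pair of libraries differed by 2-fold in Hgf. The gene shares 484 of its 7186 exonic bases with Gm43489 on the same strand, which had 2 to 8 counts.

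The angiopoietins, which pull the Tie2 receptor in opposite directions, had different patterns. Angpt1 (ENSMUSG00000022309, chromosome 15, 42424723 to 42676977, minus strand) had 15 counts in Ctrl, 6 in TP5, 5 in sFD17 and 39 in FR17, or 0.888, 0.342, 0.379 and 1.70 CPM. FR17 was the high library, and TP5 and sFD17 were low, and the sign of the difference between them turned with library size alone (a log2 fold change of 0.11, and -0.09 with that scaling). FR17 was 4.97-fold above TP5 (95% interval 2.09 to 14.4) and 4.48-fold above sFD17 (1.77 to 14.6), and 1.91 times Ctrl (1.03 to 3.74). TP5 and sFD17 lay past 2-fold below Ctrl, at log2 fold changes of -1.14 and -1.02, but both ratio intervals held 1 (0.122 to 1.05 and 0.121 to 1.23), and the sFD17 call was lost with DESeq2's size factors, at -0.99. Angpt1 shares 737 of 5205 exonic bases with the antisense gene Gm17473, which had at most 1 count in a library. Angpt2 (ENSMUSG00000031465, chromosome 8, 18690263 to 18741562, minus strand) had 39, 24, 43 and 45 counts, or 2.31 CPM in Ctrl, 1.37 in TP5, 3.26 in sFD17 and 1.96 in FR17. TP5 was its lowest library and sFD17 its highest, 2.38-fold apart (1.41 to 4.10), a call that was lost with library size alone, at a log2 fold change of 0.93. No peptide differed from Ctrl by 2-fold in Angpt2: FR17 was at a ratio of 0.849 (0.541 to 1.34), whose sign turned with library size alone.

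Osm (ENSMUSG00000058755, chromosome 11, 4236420 to 4241026, plus strand), which codes for oncostatin M, had 13272 counts in Ctrl, 11517 in TP5, 14348 in sFD17 and 13036 in FR17, or 786, 657, 1087 and 568 CPM. With TMM scaling it shared the order of Vegfa, with sFD17 highest, then Ctrl, TP5 and FR17. The counts were high enough for tight intervals: 1.38 times Ctrl in sFD17 (1.35 to 1.42), 0.836 times in TP5 (0.815 to 0.857) and 0.723 times in FR17 (0.705 to 0.740). The scaling moved the sFD17 and TP5 values outside these intervals. With library size alone their log2 fold changes were 0.25 and -0.21, against 0.47 and -0.26 with TMM. Between the assembling peptides FR17 was 0.522 times sFD17 (0.510 to 0.535), so no pair of libraries reached 2-fold in Osm.

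Read as a group against the control, the factors did not shift one way. In TP5 against Ctrl, 2 of the 9 passed 2-fold, Pgf upward and Angpt1 downward, where 8.18% of all genes tested did (3.20% upward and 4.99% downward). In sFD17 against Ctrl, 3 passed, Prok2 and Pgf upward and Angpt1 downward, against 11.8% of all genes (5.32% and 6.47%). With library size alone those 3 became Prok2 upward and Vegfb and Angpt1 downward, and DESeq2's size factors left 2, both upward. In FR17 against Ctrl, 0 passed, against 7.50% of all genes (3.92% and 3.58%), and with library size alone 2 did, Pgf and Angpt1, both upward. For TP5, sFD17 and FR17, in this order, the median log2 fold change of the 9 was -0.16, 0.47 and -0.22, where the medians of all genes were 0.00, -0.03 and 0.02. Scaling by library size alone moved the medians of all genes to 0.05, -0.23 and 0.26 and those of the 9 factors to -0.11, 0.25 and 0.01, so the sign of the FR17 median turned while it stayed below that of all genes. By edgeR's exact test at an unadjusted p under 0.05, which takes the spread over the 4 libraries as that of replicates, 1 factor was called in TP5 (Pgf, against 1.98% of all genes), 1 in sFD17 (Prok2, against 4.83%) and 0 in FR17 (against 1.88%). The counting interval of the ratio to Ctrl left out 1 for 4 factors in TP5, 5 in sFD17 and 6 in FR17, against 36.9%, 44.9% and 45.7% of all genes. The 3 comparisons share the control library.

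**Figure D2:**
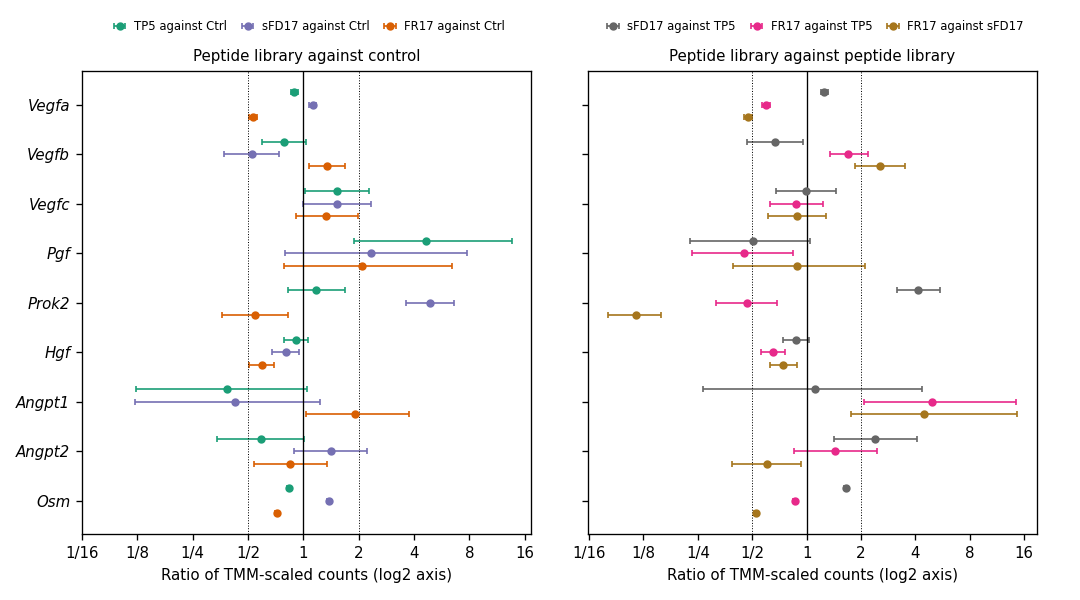
Ratio of TMM-scaled counts of each factor for the 3 peptide libraries against Ctrl (left) and between peptide libraries (right), on log2 axes with the exact 95% counting interval and dotted lines at 2-fold. The Prok2 ratio of FR17 to sFD17, 0.113, is the farthest from 1, and 0 of the 9 factors pass 2-fold on the log2 CPM scale in FR17 against Ctrl, on which Pgf in that pair lies at 0.87.

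The peptides were given at the same dose and over the same days, so their libraries can be set side by side in 3 pairs. FR17 and sFD17, which both assemble and differ in the order of the TP5 residues, were the pair farthest apart: 4 of the 9 factors passed 2-fold, Vegfb and Angpt1 higher and Vegfa and Prok2 lower in FR17. This was also the pair with the most calls in the whole table, at 22.1% of all genes (11.3% higher and 10.8% lower in FR17), and the share of the factors is to be read against that. FR17 and free TP5, which differ by the assembling backbone, had 3 factors past 2-fold, against 9.92% of all genes (7.04% higher and 2.88% lower), with Angpt1 higher and Pgf and Prok2 lower in FR17. The Pgf ratio was 0.448 (0.231 to 0.843), and only Angpt1 kept its call with library size alone or with no filter on low counts. sFD17 and TP5, which differ in both, had 2 past 2-fold, Prok2 and Angpt2, both higher in sFD17, against 12.4% of all genes (6.74% higher and 5.64% lower). With library size alone Prok2 kept its call, Angpt2 lost it and Pgf gained one as lower in sFD17, at -1.13. Vegfc did not differ by 2-fold in any of these pairs, with ratios of 0.877 (0.625 to 1.23) for FR17 against TP5, 0.879 (0.610 to 1.28) for FR17 against sFD17 and 0.997 (0.679 to 1.45) for sFD17 against TP5, and the sign of its differences from FR17 turned with library size alone. For Hgf the same ratios were 0.650 (0.556 to 0.759), 0.742 (0.624 to 0.882) and 0.876 (0.741 to 1.03), of which the second turned in sign with library size alone. The exact test called the 4 factors of FR17 against sFD17 (12.7% of all genes called), Angpt1 in FR17 against TP5 (3.67%) and Prok2 in sFD17 against TP5 (4.64%). Counting intervals left out 1 for 7, 7 and 5 factors in FR17 against TP5, FR17 against sFD17 and sFD17 against TP5, where 46.7%, 60.3% and 47.9% of all genes did. Such intervals limit the counting error of these libraries and do not show that the peptides acted alike.

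Markers of the cell types in and around the sorted gate differed between the libraries too. The summed level of 12 neutrophil markers was 31636 CPM in Ctrl, 34655 in TP5, 41198 in sFD17 and 28097 in FR17. Each of the 12 was higher in sFD17 than in Ctrl. The TMM factors were 0.986 in Ctrl, 1.02 in TP5, 0.849 in sFD17 and 1.17 in FR17. With them that list was highest in sFD17 and lowest in FR17, as Prok2, Vegfa and Osm were. In raw counts it held 534375, 607892, 543721 and 644973, against library totals of 17132880, 17165184, 15543071 and 19638228. By library size alone TP5 was thus highest and Ctrl lowest. In FR17, with TMM scaling, 6 of the 12 were higher than in Ctrl. The members of the neutrophil list were not alike. Csf3r had 4952 CPM in Ctrl and 2409 in FR17, Cxcr2 839 and 454, and S100a9, the most abundant, 10506 and 9052. The 6 that were higher in FR17 included Camp at 790 and 1139 CPM, Ltf at 2078 and 2810, and Ngp at 2924 and 3633. Ly6g, Elane and Mpo were the others. With the same scaling the 6 monocyte markers (4916 CPM in sFD17 and 3691 in FR17) were also highest in sFD17 and lowest in FR17. So were the 8 basophil and mast cell markers, at 5727 and 1979 CPM. Without Nr4a1 and Hdc, their most abundant genes, both lists were highest in FR17. The 12 macrophage markers summed to 10037 CPM in Ctrl, 7621 in TP5, 3821 in sFD17 and 12458 in FR17, with all 12 lower in sFD17 and 10 of 12 higher in FR17 than in Ctrl. Vegfb too was highest in FR17 and lowest in sFD17, as was the T cell list (6 markers, 67.8 CPM in FR17 and 22.9 in sFD17, and 34.7 and 15.8 without Cd4, its most abundant gene). The 6 platelet markers had 148 CPM in FR17 and 34.2 in sFD17, but without Pf4 the other 5 were lowest in Ctrl, at 12.1 CPM, and stood at 1.28 times that in sFD17, all 5 higher, and 1.61 times in FR17. The 6 pericyte and smooth muscle markers, cells known to make angiopoietin 1, ran from 73.7 CPM in TP5 to 105 CPM in sFD17, against 96.0 in FR17 and 88.2 in Ctrl. Their raw counts were 1293, 1387, 2204 and 1490 in the same order, so by library size alone FR17 was highest. The 8 fibroblast markers summed to 266.5 CPM in FR17, 261 in Ctrl, 219 in sFD17 and 146 in TP5, and so, like Angpt1, were lower in TP5 and sFD17 than in Ctrl. The 10 endothelial markers, for cells known to make angiopoietin 2, summed to 165.5 CPM in Ctrl, 127 in TP5, 179 in sFD17 and 224 in FR17, with all 10 higher in FR17 than in Ctrl. By library size alone the endothelial sum of sFD17 (2361 counts) lay below that of Ctrl (2796 counts). Lymphoid and basophil lists differed too: in FR17 the 6 NK cell markers stood at 2.94 times Ctrl and the 6 T cell markers at 1.68 times, each with all 6 higher, and the basophil and mast cell list without Hdc, its most abundant gene, at 2.44 times with all 7 higher (0.541 times with Hdc). The 6 B cell markers stood at 1.44 times Ctrl in TP5, all 6 higher. None of the genes of these lists was at 0 in any library. Of 6 melanoma markers, 5 were at 0 in some library and the list summed to at most 2.42 CPM. The part of these cell types in the values of the factors was not tested.

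**Figure D3:**
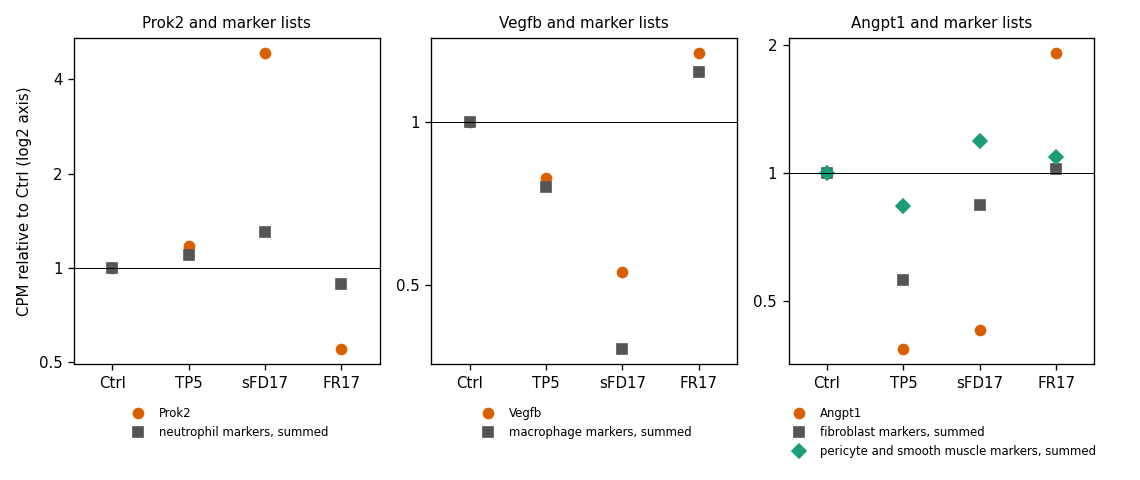
Level relative to Ctrl, on log2 axes, of Prok2 with the 12 neutrophil markers summed, of Vegfb with the 12 macrophage markers and of Angpt1 with the 8 fibroblast markers and the 6 pericyte and smooth muscle markers, with 1 point per library. Prok2 in sFD17 lies at 4.86 times Ctrl, Vegfb and the macrophage list are highest in FR17 and lowest in sFD17, and Angpt1 and the fibroblast list are lower in TP5 and sFD17 than in Ctrl.

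The receptors of these factors were measured in the same bulk libraries. Of 13 receptor and co-receptor genes, 11 passed the count minimum, and the prokineticin receptors did not, with 1 to 4 counts for Prokr1 and 0 to 1 for Prokr2, at or near the floor of 3 counts. In TP5 against Ctrl, 3 of the 11 fell past 2-fold, where 4.99% of all genes did: Tek and Tie1, the angiopoietin receptor Tie2 and its partner, at log2 fold changes of -1.12 and -1.22, and Osmr, a receptor chain for oncostatin M, at -1.05 on 32 and 15 counts. In sFD17 only Nrp2, a co-receptor of VEGF-C, did, at -1.21 (717 counts in Ctrl and 242 in sFD17), where 6.47% of all genes did. In FR17 none passed 2-fold, where 7.50% of all genes did, and 10 of the 11 were nominally higher than Ctrl, as were 8554 of the 16369 genes. The exception was Met, the receptor of hepatocyte growth factor, at -0.59.

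Most of the receptor RNA belonged to genes that both myeloid and other cells express. Flt1, which codes for VEGFR1, had 35.2 CPM in Ctrl, 37.9 in TP5, 27.0 in sFD17 and 47.4 in FR17. Nrp1, a VEGF-A co-receptor, had 59.9, 41.3, 39.0 and 65.4. The oncostatin and LIF receptor chains Il6st and Lifr had 50.9 to 57.7 CPM and 45.3 to 73.9 CPM. Kdr, which codes for the endothelial VEGFR2, was lower, at 8.05 CPM in Ctrl, 4.79 in TP5, 9.55 in sFD17 and 11.5 in FR17. Flt4, the lymphatic receptor, had 13 to 57 counts. The endothelial receptors Kdr, Flt4, Tek and Tie1 had their lowest level in TP5, where 9 of 10 endothelial markers were also lower than in Ctrl. FR17 stood past 2-fold above TP5 in these 4 genes and Osmr, 5 of the 11 where 7.04% of all genes did, at log2 fold changes from 1.19 for Osmr to 1.60 for Flt4. Against Ctrl, the 11 receptors had medians of -0.54 (TP5), -0.08 (sFD17) and 0.17 (FR17), beside 0.00, -0.03 and 0.02 for all genes. With library size alone they were -0.48, -0.30 and 0.42, beside 0.05, -0.23 and 0.26, and with no filter on low counts the TP5 median was -0.30.

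**Figure D4:**
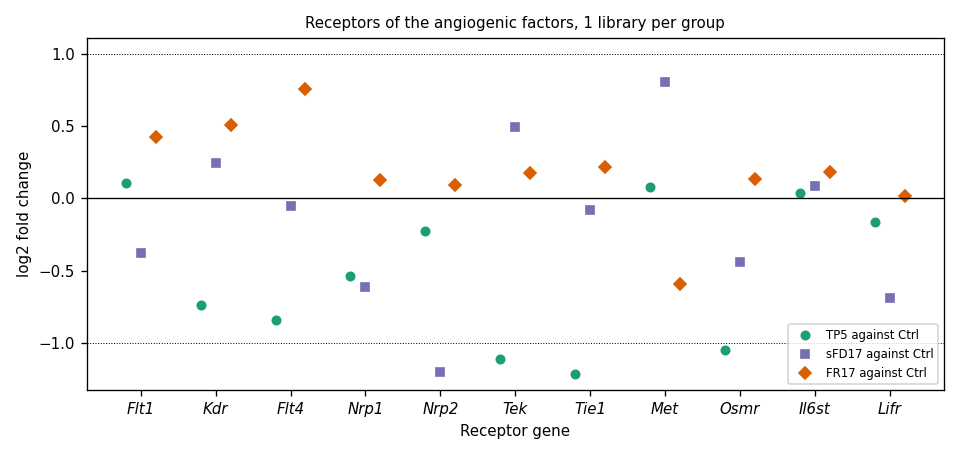
Log2 fold change of the 11 receptor genes with enough counts in each peptide library against Ctrl, 1 library per group, with dotted lines at 2-fold. Tek, Tie1 and Osmr lie below -1 in TP5 and Nrp2 in sFD17, and no receptor passes 2-fold in FR17.

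Genes of the pathways around the factors were counted from lists. Of 18 genes of the hypoxia pathway, which drives VEGF-A in many cells, 14 were nominally lower in FR17 than in Ctrl and 1 passed 2-fold, Ankrd37, a hypoxia-induced gene, at a log2 fold change of -1.26 (105 counts in Ctrl and 58 in FR17). Of all 16369 genes, 7815 were lower in FR17 and 3.58% past 2-fold lower. The glucose transporter Slc2a1 had 326 CPM in Ctrl and 178 in FR17, at -0.88. The list's median was -0.28 in FR17, -0.01 in TP5 and 0.09 in sFD17. With library size alone the FR17 median was -0.03 and that of sFD17 turned to -0.12, with 9 of the 18 lower in FR17, where the medians of all genes were 0.26 and -0.23. Epas1, which codes for the hypoxia factor HIF-2α and is abundant in endothelium, was at -0.86 in TP5.

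The 8 genes of the G-CSF and STAT3 pathway, which induces Prok2 in myeloid cells, were all nominally higher in sFD17 than in Ctrl, as were 7862 of the 16369 genes, and all lower in FR17, as were 7815, with medians of 0.27 and -0.64. Of them 1 passed 2-fold in FR17, where 3.58% of all genes did downward: Csf3r, the G-CSF receptor, which fell by 1.04 on the log2 scale in FR17 (4952 CPM in Ctrl and 2409 in FR17). Bcl3, an NF-κB cofactor, was at 0.89 in sFD17 and -0.70 in FR17, and the kinase gene Pim1 at 0.22 and -0.75. With library size alone 7 of the 8 were higher in sFD17 and all 8 lower in FR17, with medians of 0.05 and -0.39, and Csf3r was at -0.79, short of 2-fold. With no filter on low counts 0 of the 8 passed in FR17 as well. Csf3r is also 1 of the 12 neutrophil markers above. In TP5, 7 of the 8 were nominally lower than in Ctrl, as were 8167 of all genes, with a median of -0.22. Prok2 in TP5 was at 1.18 times Ctrl (0.821 to 1.69).

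Among 21 further angiogenic factors, 5 passed 2-fold in sFD17 against Ctrl, 2 upward and 3 downward, where 11.8% of all genes passed. With library size alone 1 passed upward and 6 downward. In TP5 1 passed (8.18% of all genes) and in FR17 2 (7.50%). The FR17 pair, also named after its values were seen, was Adm, the adrenomedullin gene, on 8 counts in Ctrl and 25 in FR17, and the chemokine gene Cxcl2, which had 9017 CPM in Ctrl and 4409 in FR17, at log2 fold changes of 1.03 and -1.03. When scaled by library size alone, or with no filter on low counts, FR17 had 1 past 2-fold, upward, and 0 downward. Of the sFD17 calls the upward pair, named after its values were seen, was Csf3, the G-CSF gene, at a log2 fold change of 1.47 (326 counts in Ctrl and 706 in sFD17), and Tnf at 1.09 (5141 and 8551). Pdgfc, a platelet-derived growth factor gene, had 148 counts in Ctrl and 20 in sFD17, a log2 fold change of -2.45. Ecm1, a matrix protein gene, fell by 1.41 in TP5 and by 2.18 in sFD17, and Ang, the angiogenin gene, fell by 2.14 in sFD17, all on the log2 scale. These 3 genes had their lowest level in sFD17, as Vegfb and the macrophage markers did. Further ligands of the same families were few, with 4 of 8 past the count minimum. Il6, the interleukin 6 gene, had 1502 counts in Ctrl and 509 in sFD17, a fall of 2-fold or more at -1.20. Lif had 468 and 207, at -0.82, past 2-fold with library size alone (-1.03). Osm, of the same cytokine family, was at 1.38 times its control level in sFD17.

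Of 14 angiogenesis inhibitors, 6 were past 2-fold lower in TP5 than in Ctrl, where 4.99% of all genes were, and the median was -0.74. Of the 6, Sema3a and Thbs2, named after their values were seen, rest on few counts: Sema3a had 2 counts in Ctrl and 0 in TP5, both under the floor of 3 counts, and Thbs2 had 6 and 2. Among the 11 inhibitors with at least 10 counts in every library, 4 passed and the median was -0.63. Pf4, the platelet factor 4 gene, which macrophages also express, fell by 1.46 in TP5 and by 2.45 in sFD17 on the log2 scale, from 1733 counts in Ctrl to 653 and 247. Cxcl10, an interferon-induced chemokine that restrains endothelial growth, rose in sFD17 at a log2 fold change of 2.39 (844 counts in Ctrl and 3467 in sFD17). Adamts1, a protease that binds VEGF-A, fell by 1.52 on the log2 scale in TP5. The endothelial and fibroblast marker lists were lower in TP5 as well, at 0.766 and 0.559 times Ctrl. In sFD17 and FR17 the inhibitors' medians were 0.02 and 0.05, and -0.19 and 0.27 with library size alone.

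Of the enzymes that free or activate these factors, none of 9 vascular remodelling proteases and inhibitors and none of 5 activators and inhibitors of hepatocyte growth factor passed 2-fold in any peptide library against Ctrl, where 8.18% (TP5), 11.8% (sFD17) and 7.50% (FR17) of all genes did. The nearest were Mmp25, a neutrophil membrane metalloproteinase, at 0.95 in sFD17, and Hpse, the heparanase gene, at 0.87. Between FR17 and sFD17 these 2 of the 9 proteases and inhibitors were past 2-fold lower in FR17, at -1.22 and -1.09, where 10.8% of all genes were, and both calls were lost with library size alone, at -0.76 and -0.63. Mmp2, whose product cuts the linker of both assembling peptides, had 132 to 233 counts and log2 fold changes against Ctrl of -0.81 (TP5), -0.18 (sFD17) and -0.38 (FR17). Of the activators and inhibitors, Spint1 was at -0.57 in sFD17, Plat at -0.41 in sFD17 and Spint2 at 0.31 in sFD17.

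**Figure D5:**
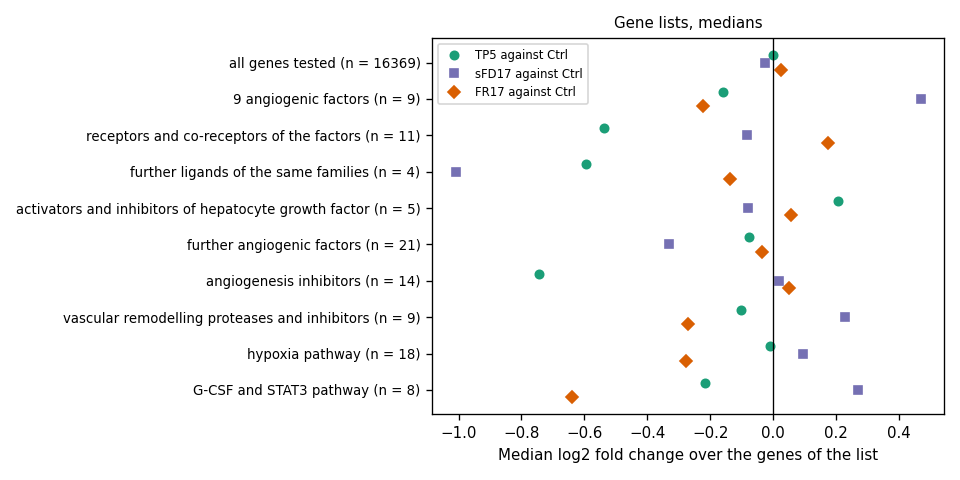
Median log2 fold change of the genes of each list in the peptide libraries against Ctrl, with the number of genes tested in brackets. The G-CSF and STAT3 pathway has its lowest median, -0.64, in FR17 and its highest, 0.27, in sFD17, and the angiogenesis inhibitors lie at -0.74 in TP5.

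Patterns over the 4 libraries were compared by the Euclidean distance between centred log2 CPM values, for the 3 factors that reached 50 counts in at least 1 library and had a log2 range of 1 or more. Each was set against the 9799 genes with at least 50 counts in every library. For Vegfa the nearest were the ribosomal pseudogene Rpl28-ps3, whose reads its parent gene may share, at 0.04, Kpna4, a nuclear import gene, at 0.05 and the microRNA host gene Mir22hg at 0.07. Kpna4 had 483 CPM in Ctrl and 267 in FR17. For Vegfb they were Dst, a cytolinker gene, at 0.04, Ntpcr at 0.06 and the tetraspanin gene Tspan4 at 0.06. For Prok2 they were Helz2 at 0.22, Ifit1bl2 at 0.28 and Oas3 at 0.35. Oas3 codes for an interferon-induced antiviral enzyme. Its promoter window held 1 match to the interferon-stimulated response element and the first window of Ifit1bl2 held 2, while those of Helz2 and Prok2 held 0. Helz2 had 144 CPM in Ctrl, 195 in TP5, 806 in sFD17 and 98.7 in FR17, which is the same order as Prok2. Likeness over 4 libraries is a description of these libraries only.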

How the data were processed

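CD11b+Ly6g+ MDSCs sorted from lungs of PMN model mice gave 4 libraries, 1 per group, with 10 to 12 mice pooled in each. TRIzol was used for RNA extraction and the NEBNext Ultra Directional kit for the libraries. For each gene the authors deposited its counts as raw numbers of reads, with coordinates and gene length. The submitters' processing notes name HISAT2 2.0.5, StringTie 1.3.3b, featureCounts 1.5.0-p3, edgeR 3.18.1 and the build GRCm38.p6. Whether counting used the strand is not given in the sources used here, so reads of a gene and its antisense partner cannot be told apart.

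Columns were assigned to samples by group name, leaving 0 unassigned. For 100 symbols that stand on several rows, all rows stayed in the counts over all genes. The most abundant row was taken where a gene was looked up by symbol. Genes below 10 counts in all libraries were dropped, which left 16369 of 54532. Log2 fold changes came from the log2 CPM of edgeR 4.0.16 (R 4.3.3) with TMM scaling and 2 as prior count, and a difference was called at 2-fold. The quasi-likelihood test needs replicates and was not run. Ratios of scaled counts carry exact 95% binomial intervals, and levels exact Poisson intervals (scipy 1.17.1). TPM used the deposited gene length, which equals the GENCODE M21 exon length for all 9 factors. No fold of a named gene was given where both libraries were at or under 3 counts, though such a gene stayed in the counts over its list. Promoters came from RefSeq on GRCm38.p6.

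Of each pathway list the 3 genes with the largest change against Ctrl among those reaching 50 counts in either library were named, and all receptors. The factors, lists and tests were chosen with earlier results of these data known. The procedure was tested on simulated data. The 8 alternatives were DESeq2 1.42.0 size factors, library size alone, no filter, at least 10 counts in every library, a prior count of 0.5, 1.5-fold, edgeR's exact test and DESeq2's Wald test, both at an unadjusted p under 0.05. For the levels, exon length replaced the deposited length, and marker lists were also summed without their most abundant gene.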

Additional observations from a re-analysis of the deposited data

How the results depend on the processing

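No paired analysis was possible because each group has 1 library, and leaving out a library would leave a group empty. Values below are in the order TP5, sFD17 and FR17 against Ctrl, FR17 against TP5, FR17 against sFD17 and sFD17 against TP5. The genes past 2-fold numbered 1339, 1930, 1227, 1624, 3613 and 2026. With no filter on low counts they were 3097, 4212, 2891, 3175, 5654 and 3762, with at least 10 counts in every library 503, 914, 448, 714, 2316 and 980, and at 1.5-fold 3409, 4751, 3714, 4006, 7534 and 5200. edgeR's exact test called 324, 791, 307, 601, 2073 and 760 genes and DESeq2's Wald test 63, 192, 40, 121, 1138 and 139, both with a spread estimated over the 4 libraries as 1 group. Of the 9 factors, 2, 3, 0, 3, 4 and 2 passed 2-fold. Library size alone gave 2 for FR17 against Ctrl and 1 for FR17 against TP5, and a prior count of 0.5 gave 1 for FR17 against Ctrl. With no filter there was 1 for FR17 against TP5 and 2 for sFD17 against Ctrl, and DESeq2's size factors also gave 2 for the latter. Library size alone and no filter each lost Vegfa in FR17 against sFD17. With at least 10 counts in every library, which drops Pgf and Angpt1, 0, 1 and 1 passed for TP5 against Ctrl, sFD17 against Ctrl and FR17 against TP5. At 1.5-fold 4, 5, 6 and 4 passed for TP5 against Ctrl, FR17 against Ctrl, FR17 against TP5 and sFD17 against TP5. The exact test called 1 factor in each of TP5 against Ctrl (Pgf), sFD17 against Ctrl (Prok2), FR17 against TP5 (Angpt1) and sFD17 against TP5 (Prok2), and in FR17 against sFD17 the 4 that passed 2-fold. The Wald test called 2, Vegfa and Prok2, in FR17 against sFD17 and 0 in TP5 against Ctrl, sFD17 against Ctrl, FR17 against TP5 and sFD17 against TP5. The cause of these differences was not tested. Library size alone also moved the split of higher and lower genes: in sFD17 against Ctrl from 871 and 1059 to 580 and 1534, in FR17 against Ctrl from 641 and 586 to 1091 and 316, in FR17 against TP5 from 1153 and 471 to 1600 and 314, in FR17 against sFD17 from 1847 and 1766 to 4209 and 782, and in sFD17 against TP5 from 1103 and 923 to 709 and 1646. Over the 54 log2 fold changes of the factors it kept the sign of 47 and kept 9 of 14 past 2-fold, and DESeq2's size factors kept 53 and 13. The Prok2 calls of sFD17 against Ctrl and of FR17 against sFD17 passed 2-fold under every scaling and filter tried. Depth limits Pgf and Angpt1 most, with 5 to 39 counts a library.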
